A study of Mus musculus with 9 samples.

Results

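Icam1, Icam2, Vcam1, Sele, Selp, Pecam1, Cdh5, Vwf, Nos3 and Kdr encode adhesion and activation molecules of the vessel wall, and they were chosen by name as a group of 10 among the 20634 genes with a deposited value. All 10 were measured in every library and all 10 passed the filter on low counts. They were measured by RNA-seq of left ventricle from C57BL/6 mice at 6 months of age, after perfusion of the heart with saline. The 4 groups were delta-sarcoglycan knockout mice on ifetroban (KO ifetroban, 3 libraries), knockout mice on plain drinking water (KO vehicle, 2), wild-type mice on ifetroban (WT ifetroban, 2) and wild-type mice on plain water (WT vehicle, 2). Ifetroban, which blocks the receptor for thromboxane and related prostanoids, was given in the drinking water at 25 mg/kg/day from weaning, and all 4 groups had running wheels at intervals. Delta-sarcoglycan, encoded by Sgcd, is part of a membrane complex that anchors dystrophin in muscle cells. The labels name no deleted exon, no pooling and no line of the knockout, and do not say that libraries of a group came from separate animals, so p-values measure the spread between these libraries.

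Resting endothelium lines vessels with cells held together by VE-cadherin and PECAM-1, makes nitric oxide through endothelial nitric oxide synthase, and responds to vascular endothelial growth factor through its receptor KDR. Inflammatory cytokines and clotting signals activate it: P-selectin and von Willebrand factor are released from stored granules, and E-selectin, VCAM-1 and ICAM-1 are made anew through NF-kappaB. Selectins slow leukocytes along the wall, and ICAM-1 and VCAM-1 then bind leukocyte integrins and hold the cells in place.

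Libraries held 21510263 to 30182955 counts. Sgcd had 9.64 and 8.63 CPM (the share of a library's counts, scaled between libraries by trimmed means of M values) in KO vehicle, against 8.36 and 20.9 CPM in WT vehicle. It had 7.30, 12.9 and 13.3 CPM in KO ifetroban, against 23.7 and 23.5 CPM in WT ifetroban. WT vehicle replicate 1, at 8.36 CPM, therefore lay inside the knockout range, and below it stands as the library labelled WT vehicle replicate 1. Genotype over both treatments gave a log2 fold change of -0.90 ± 0.25 (SE) for Sgcd with an adjusted p of 0.101. KO ifetroban replicate 1 is ifetroban by its title and vehicle by its treatment label, and was kept as ifetroban. The libraries also fell into 2 sets by how gene level ran with transcript length, measured as a rank correlation over 13051 protein-coding genes after centring each gene. This length slope was -0.52 to -0.40 in the library labelled WT vehicle replicate 1, both KO vehicle libraries and KO ifetroban replicate 1, and 0.38 to 0.43 in the other 5. Results were also computed without both libraries in doubt and with the slope set as a term in the model, and for genotype over both treatments those values are given where they change a call or a direction of the 10 genes.

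Levels of the 10 genes were compared with each other as CPM per kilobase of the longest annotated transcript. Cdh5 (VE-cadherin, the junction protein of endothelial cells) had the highest level, 55.8 ± 7.44 CPM per kb (SD, n = 9 libraries), followed by Pecam1 at 39.7 ± 3.53 and Kdr at 34.1 ± 8.89 CPM per kb. Icam2 (a ligand of leukocyte integrins made by resting endothelium) had 14.1 ± 1.96 CPM per kb. Nos3 had 7.71 ± 0.739, Icam1 5.90 ± 1.48, Vwf 5.19 ± 1.70 and Vcam1 4.50 ± 0.709 CPM per kb. The selectins were the lowest, Sele at 0.618 ± 0.293 and Selp at 0.250 ± 0.242 CPM per kb. Neighbours in this order overlapped in their ranges over libraries except Kdr and Icam2, Icam2 and Nos3, and Vcam1 and Sele. In every library the inducible molecules Icam1, Vcam1, Sele and Selp lay below Cdh5, Pecam1, Kdr and Icam2 on this scale.

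**Figure D1:**
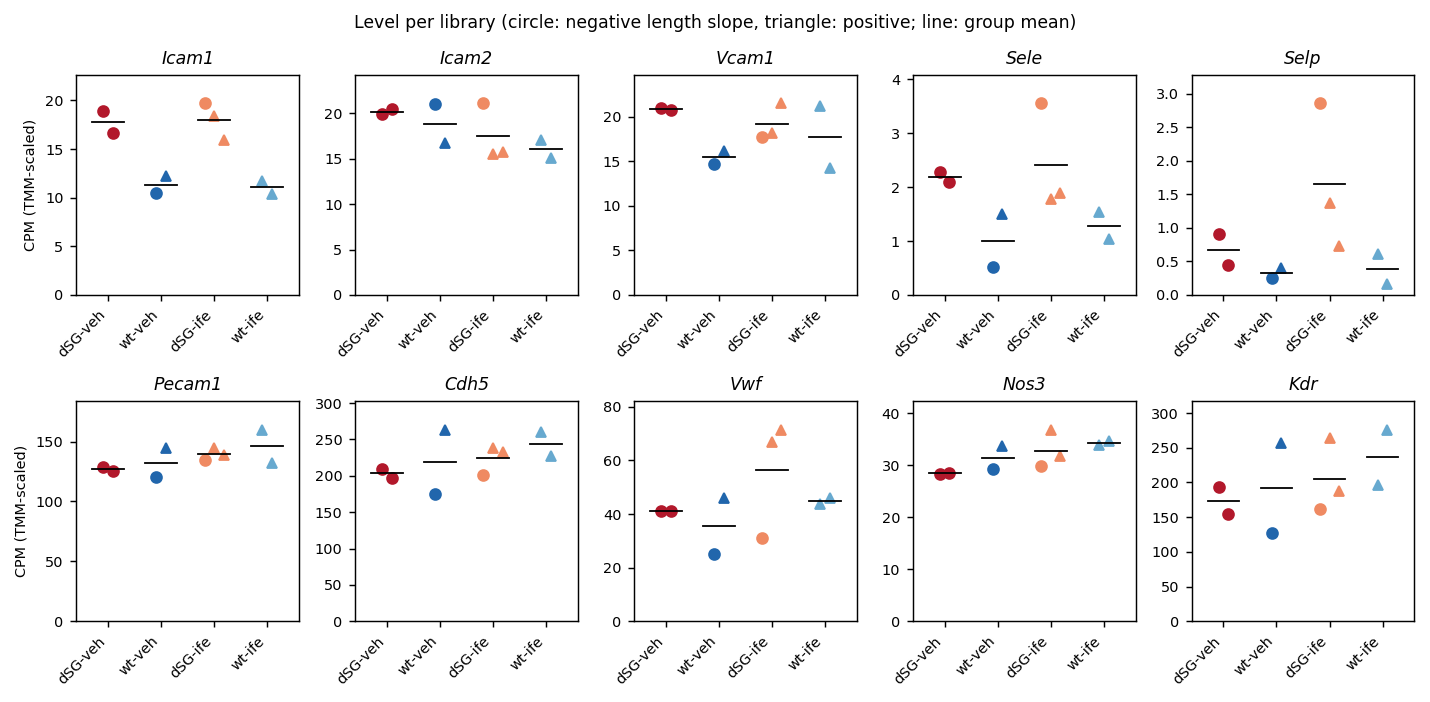
Level of each of the 10 genes per library, in TMM-scaled CPM on the vertical axis, by group (dSG is the knockout, wt the wild type, veh vehicle, ife ifetroban). Circles are libraries with a negative and triangles with a positive length slope, and the line is the group mean. Knockout and wild-type points separate for Icam1 and Sele in both treatments, while Pecam1 and Cdh5 points mix.

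The first comparison asked which of these genes differed by genotype in the left ventricle. Of the 10 genes, 1 (Icam1) passed an adjusted p of 0.05 over both treatments in edgeR's quasi-likelihood test, and it rose in knockout. Of all 15549 genes tested, 2.33% passed that threshold and 2.06% rose. Sele and Selp were higher by larger fold changes without passing, and Pecam1, Cdh5, Nos3, Kdr and Icam2 had log2 fold changes between -0.18 and 0.11. The median over the 10 genes was 0.18 on the log2 scale, against -0.02 over all genes.

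Icam1 encodes the integrin ligand through which neutrophils, monocytes and lymphocytes hold on to activated endothelium, and macrophages and other cells also make it. It lies on chromosome 9 at 21015960 to 21028797 (mm10, plus strand) and is protein coding. Icam1 had 18.9 and 16.7 CPM in KO vehicle, against 10.5 and 12.2 CPM in WT vehicle. It had 19.7, 18.4 and 16.0 CPM in KO ifetroban, against 11.7 and 10.4 CPM in WT ifetroban. Every knockout library was above every wild-type library in both treatments, with 396 to 579 counts per knockout library and 204 to 302 per wild-type library. Over both treatments the log2 fold change of Icam1 was 0.68 ± 0.10 (SE), with an adjusted p of 0.0113, ranked 68 of 15549 by p. Within one treatment the same size did not pass, at 0.65 ± 0.16 under vehicle (adjusted p = 0.292) and 0.70 ± 0.15 under ifetroban (adjusted p = 0.128). With both doubted libraries left out (the one labelled WT vehicle replicate 1, and KO ifetroban replicate 1), the log2 fold change of Icam1 was 0.61 (adjusted p = 0.0143), where 3.34% of all genes passed. The adjusted p of Icam1 was 0.0695 without WT ifetroban replicate 2 and 0.0591 without KO vehicle replicate 1, at log2 fold changes of 0.64 and 0.66.

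Since Icam1 did not overlap between genotypes over all libraries, its separation within each length-slope set was given in advance. Among libraries with a negative slope, Icam1 had 16.7 to 19.7 CPM in 3 knockout libraries and 10.5 CPM in the 1 labelled wild type. Among those with a positive slope it had 18.4 and 16.0 CPM in knockout and 10.4 to 12.2 CPM in 3 wild-type libraries. In both sets together, 4 of the 10 genes (Icam1, Sele, Selp and Vwf) had every knockout library above every wild-type library of the set, against 8.72% of all genes. For Icam1 and Sele, apart over all libraries, this was given in advance, as for the 4.62% of all genes likewise higher in knockout. Taken alone, the negative set gave this for 31.9% and the positive set for 14.8% of all genes.

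Relative to Pecam1 in the same library, Icam1 stood at 11.5% to 14.7% in knockout and 7.32% to 8.72% in wild type. Summed levels of a list of 25 endothelial markers were 1857 to 2072 CPM in knockout and 2072 to 2264 CPM in wild type, and 0 of the 25 passed in either direction. Summed levels of 17 macrophage and myeloid markers were 633.3 to 735.7 CPM in knockout and 302.4 to 420.0 CPM in wild type, none of them at 0 in any library, and 15 of the 17 rose. The part of these cells in the Icam1 result was not tested. In bulk tissue, more cells of a type and more RNA per cell cannot be told apart.

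**Figure D2:**
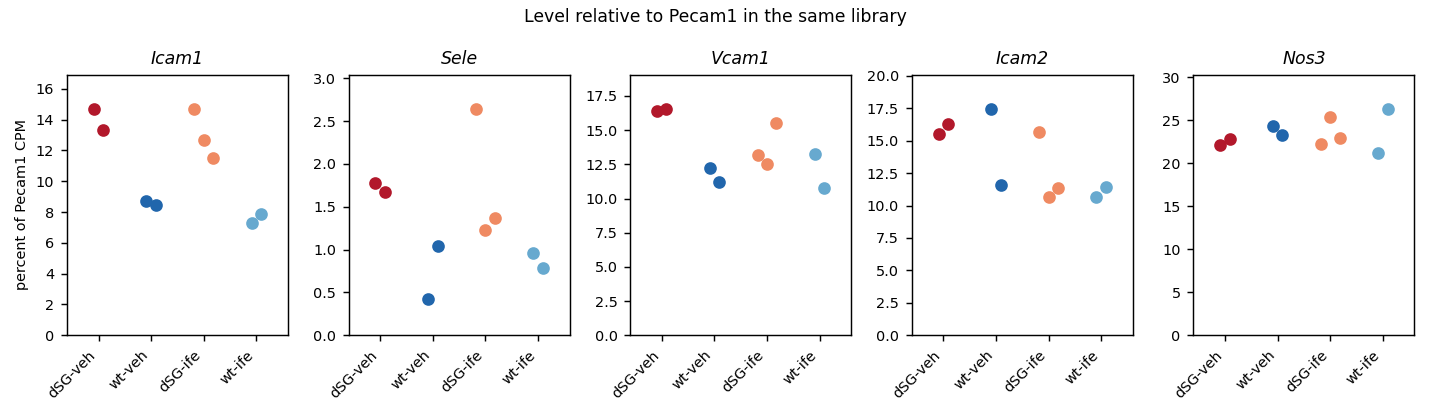
Level of 5 genes as a percentage of the Pecam1 level in the same library (vertical axis), by group; each point is a library. Icam1 and Sele stay above wild type in every knockout library, while Icam2 and Nos3 overlap.

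Sele and Selp encode the selectins on which leukocytes roll, and they lie next to each other on chromosome 1 at 164048234 to 164057677 and 164115264 to 164150026 (mm10, plus strand). Sele had 2.28 and 2.09 CPM in KO vehicle, against 0.513 and 1.498 CPM in WT vehicle. It had 3.56, 1.78 and 1.90 CPM in KO ifetroban, against 1.53 and 1.04 CPM in WT ifetroban. The groups did not overlap in either treatment, on 47 to 76 counts per knockout library and 10 to 38 per wild-type library. Over both treatments, Icam1 and Sele were the 2 of 10 genes with every knockout library above every wild-type library, which held for 4.62% of all genes tested. The log2 fold change of Sele was 0.97 ± 0.32 (SE), with an adjusted p of 0.164. Without both doubted libraries it was 0.54 (adjusted p = 0.246). Relative to Pecam1, Sele stood at 1.23% to 2.65% in knockout and 0.427% to 1.04% in wild type.

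Selp is the P-selectin of endothelial granules and is also carried by platelets. Selp had 0.911 and 0.442 CPM in KO vehicle, against 0.257 and 0.405 CPM in WT vehicle. It had 2.86, 1.37 and 0.727 CPM in KO ifetroban, against 0.606 and 0.167 CPM in WT ifetroban. Groups did not overlap within a treatment but did over both, and the counts were only 11 to 61 per knockout library and 4 to 15 per wild-type library. The log2 fold change of Selp over both treatments was 1.62 ± 0.54 (SE), with an adjusted p of 0.165. Without both doubted libraries it was 1.19 (adjusted p = 0.219).

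Summed levels of 9 platelet markers were 28.7 and 18.1 CPM in KO vehicle, against 20.1 and 9.06 CPM in WT vehicle, and 25.8, 13.3 and 14.1 CPM in KO ifetroban, against 11.6 and 7.91 CPM in WT ifetroban. These sums were 18.1 to 28.7 CPM in negative-slope libraries and 7.91 to 14.1 CPM in positive-slope libraries. Up to 4 of the 9 were at 0 in a library. Pf4, a chemokine of platelet granules, had 10.7 to 21.0 CPM in knockout and 7.08 to 13.2 CPM in wild type, with overlap. Ppbp had 0.402 to 2.96 CPM in knockout and 0.284 to 3.08 CPM in wild type. Itga2b had 0.404 to 2.48 CPM in knockout and 0.167 to 2.05 CPM in wild type. Ppbp and Itga2b also overlapped between genotypes, lay below Pf4 in every library, and were named after their values were seen. The part of platelets in the Selp values was not tested.

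Vcam1 encodes the ligand of the integrin VLA-4 on monocytes and lymphocytes. Vcam1 had 21.0 and 20.8 CPM in KO vehicle, against 14.7 and 16.2 CPM in WT vehicle. It had 17.7, 18.2 and 21.51 CPM in KO ifetroban, against 21.2 and 14.2 CPM in WT ifetroban. Groups were apart under vehicle and overlapped under ifetroban, where WT ifetroban replicate 1 reached the knockout level. The log2 fold change of Vcam1 was 0.44 ± 0.20 under vehicle (adjusted p = 0.639), 0.11 ± 0.18 under ifetroban (adjusted p = 0.876) and 0.26 ± 0.13 over both (adjusted p = 0.377). The difference between the 2 treatments was itself -0.32 ± 0.26 with an adjusted p of 0.9999.

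Under vehicle, Icam1, Sele, Selp and Vcam1 were the 4 genes with both knockout libraries above both wild-type libraries, where 18.3% of all genes were, and Nos3 was the 1 gene below, where 17.6% were. Under ifetroban the genes above were Icam1, Sele and Selp, where 14% of all genes were. None of the 10 passed the threshold within one treatment, and 0.0515% of all genes did under vehicle and 0.0386% under ifetroban. With DESeq2 in place of edgeR, Icam1 passed under ifetroban (log2 fold change 0.71, adjusted p = 0.0106), where 1.87% of all genes did. The unadjusted p of edgeR was under 0.05 for Icam1 under vehicle, as for 7.9% of all genes, and for Icam1 and Selp under ifetroban, as for 9.36%. Over both treatments it was under 0.05 for Icam1, Sele and Selp, as for 16.1% of all genes. The vehicle and ifetroban comparisons use different libraries.

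**Figure D3:**
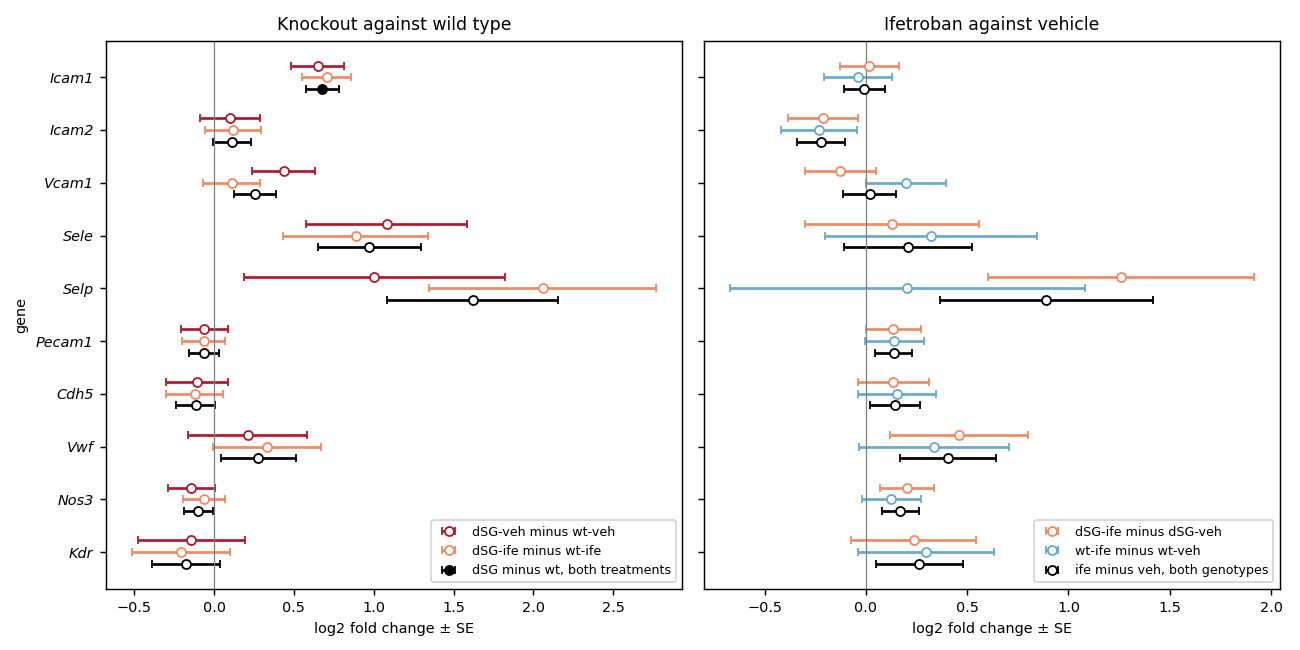
Log2 fold change with its SE (horizontal axis) for each gene, knockout over wild type on the left and ifetroban over vehicle on the right. The filled point marks the 1 value past an adjusted p of 0.05, Icam1 over both treatments at 0.68; the selectins have the widest bars.

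Promoters of Icam1, Sele, Selp and Kdr are held in the RefSeq table used here (GRCm38.p6), and those of the other 6 genes were not used. Each is printed 5′ to 3′ on the gene's strand, as 250 bases before the RefSeq start and 50 from it on. That start is the deposited one for Sele and Selp, lies 20 bases before it for Icam1 (at 21015940) and differs from it by 3 bases for Kdr. All 4 are shown, so that Icam1 and Sele, whose knockout and wild-type levels did not overlap, stand beside Selp and Kdr, whose levels did. Capitals mark matches to 5 motifs, searched on both strands. The AP-1 motif was TGACTCA, that of ETS factors was AGGAAG, that of GATA factors was AGATAA and the box of core promoters was TATAAA. The NF-kappaB motif was GGGRNWYYCC, where R is A or G, W is A or T, Y is C or T and N is any base.
Icam1 (chr9:21015690-21015989, plus strand): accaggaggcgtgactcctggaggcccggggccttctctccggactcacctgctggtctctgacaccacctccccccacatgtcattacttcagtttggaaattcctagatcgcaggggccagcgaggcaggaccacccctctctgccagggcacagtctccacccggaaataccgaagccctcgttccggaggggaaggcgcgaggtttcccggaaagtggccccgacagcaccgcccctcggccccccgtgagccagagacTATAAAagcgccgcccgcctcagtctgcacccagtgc
Sele (chr1:164047984-164048283, plus strand): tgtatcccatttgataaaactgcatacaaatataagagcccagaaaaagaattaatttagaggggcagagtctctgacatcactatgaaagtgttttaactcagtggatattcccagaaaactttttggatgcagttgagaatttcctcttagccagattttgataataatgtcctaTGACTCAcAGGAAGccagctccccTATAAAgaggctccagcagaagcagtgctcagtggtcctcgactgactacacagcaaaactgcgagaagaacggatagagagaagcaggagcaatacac
Selp (chr1:164115014-164115313, plus strand): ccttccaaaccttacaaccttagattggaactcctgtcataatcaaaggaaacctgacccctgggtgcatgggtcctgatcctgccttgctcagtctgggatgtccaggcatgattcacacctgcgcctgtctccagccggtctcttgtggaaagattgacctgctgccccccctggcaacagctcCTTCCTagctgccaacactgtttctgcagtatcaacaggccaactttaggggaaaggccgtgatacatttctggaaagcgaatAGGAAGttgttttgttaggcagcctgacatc
Kdr (chr5:75978406-75978705, minus strand): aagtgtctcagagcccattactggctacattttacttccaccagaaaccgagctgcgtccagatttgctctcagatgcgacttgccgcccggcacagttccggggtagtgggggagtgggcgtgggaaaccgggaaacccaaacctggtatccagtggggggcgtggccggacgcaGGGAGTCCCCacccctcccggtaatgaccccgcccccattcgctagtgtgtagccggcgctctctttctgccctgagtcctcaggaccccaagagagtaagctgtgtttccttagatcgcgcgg
The Icam1 window held 1 match, a TATA motif at position 14 from the RefSeq start, which is before the deposited start. In Sele an AP-1 match at position -73, an ETS match at -65 and a TATA match at -49 stood close together without overlap. Selp held ETS matches at position 20 and, on the other strand, at -64, and Kdr an NF-kappaB match at -74. Of 32851 promoters of the same length, 4.51% held an NF-kappaB, 5.20% an AP-1, 35.4% an ETS, 11.2% a GATA and 13.6% a TATA match. Only exact matches were marked, so an unmarked stretch can still hold a site that departs from these patterns. The absence of an NF-kappaB match in Icam1, Sele and Selp therefore does not show that they lack such a site. These matches describe the letters of the windows and say nothing of binding.

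Vwf encodes von Willebrand factor, the multimer that tethers platelets to injured vessel walls. It has the longest transcript of the 10 genes, 8.834 kb, and its level followed the length-slope set of a library. Vwf had 41.1 and 41.1 CPM in KO vehicle, against 25.0 and 46.0 CPM in WT vehicle. It had 31.1, 66.7 and 71.5 CPM in KO ifetroban, against 43.9 and 45.8 CPM in WT ifetroban. Groups overlapped in both treatments, and the log2 fold change over both was 0.28 ± 0.24 (SE), with an adjusted p of 0.599.

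Within each length-slope set, knockout and wild-type levels of Vwf did not overlap. Among negative-slope libraries Vwf had 31.1, 41.1 and 41.1 CPM in knockout and 25.0 CPM in the 1 labelled wild type. Among positive-slope libraries it had 66.7 and 71.5 CPM in knockout and 43.9 to 46.0 CPM in wild type. With the slope set as a term in the edgeR model, the log2 fold change of Vwf was 0.67 ± 0.08 over both treatments (adjusted p = 0.00129), 0.80 ± 0.11 under vehicle (adjusted p = 0.0124) and 0.59 ± 0.09 under ifetroban (adjusted p = 0.0179). In that fit 3.04%, 0.759% and 0.92% of all genes passed, in the same order, and Vwf and Icam1 were the 2 genes of the 10 that passed over both treatments. Only WT vehicle and KO ifetroban held libraries of both slope sets. Their negative-slope libraries were the doubted ones, WT vehicle replicate 1 and KO ifetroban replicate 1. With group means in the model, the slope term behind the vehicle and ifetroban values therefore rested on these doubted libraries. With the positive-slope libraries alone, Vwf was 0.64 ± 0.09 higher in knockout under ifetroban (adjusted p = 0.0406), where 0.386% of all genes passed. With the negative-slope libraries alone it was 0.72 ± 0.12 higher under vehicle (adjusted p = 0.0230, 1.6% of all genes), a fit in which wild type is 1 library assumed to vary like the others and is the library whose Sgcd level lay inside the knockout range. Without that library and the slope term, the vehicle value of Vwf was -0.16 (adjusted p = 0.867). Without both doubted libraries, and with no slope term, Vwf did not pass over both treatments (0.32 ± 0.15, adjusted p = 0.272) or under vehicle (-0.16 ± 0.11, adjusted p = 0.388). Under ifetroban, where the remaining libraries all have a positive slope, it was 0.64 ± 0.09 higher in knockout (adjusted p = 0.0119, 0.85% of all genes).

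**Figure D4:**
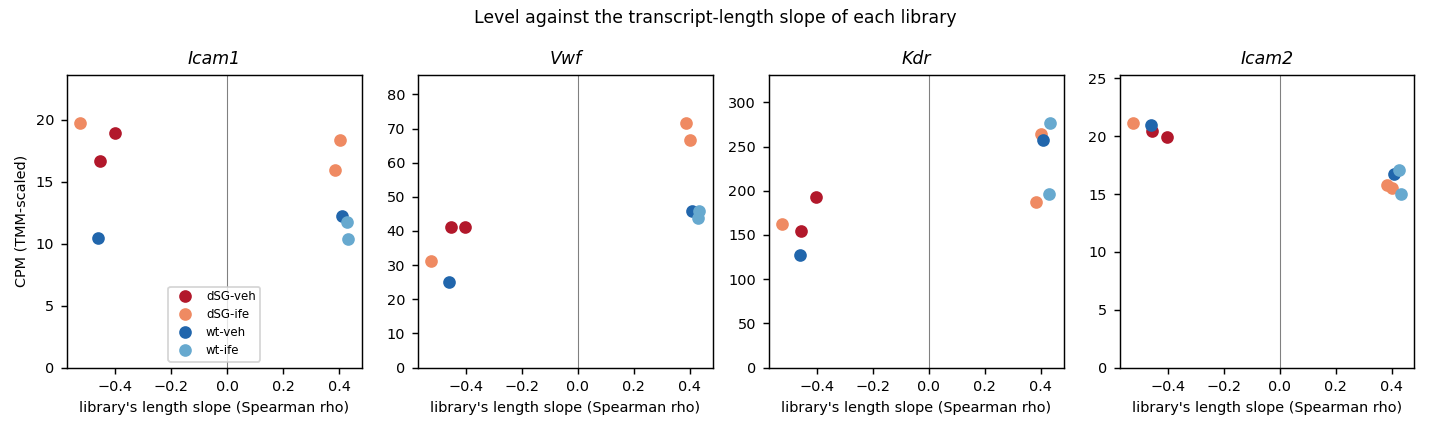
CPM of Icam1, Vwf, Kdr and Icam2 (vertical axes) against the length slope of each library (horizontal axis, Spearman rho over 13051 genes); colours are groups. Vwf is higher at positive slopes in each genotype, Icam2 is higher at negative slopes, and Icam1 separates by genotype on both sides.

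Kdr encodes the main signalling receptor for vascular endothelial growth factor on endothelium. Kdr had 193.4 and 154.4 CPM in KO vehicle, against 126.8 and 257.3 CPM in WT vehicle. It had 162.4, 263.8 and 187.8 CPM in KO ifetroban, against 196.5 and 276.2 CPM in WT ifetroban. Wild-type libraries spanned the whole knockout range, and the log2 fold change over both treatments was -0.18 ± 0.21 (adjusted p = 0.722). It was 0.13 with the slope set as a term, so no direction was fixed. Kdr, 5.924 kb, had 126.8 to 193.4 CPM in negative-slope libraries and 187.8 to 276.2 CPM in positive-slope libraries.

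The junction molecules differed little. Pecam1 encodes an adhesion molecule of endothelial contacts, platelets and leukocytes, and had 128.4 and 125.2 CPM in KO vehicle, against 120.0 and 144.5 CPM in WT vehicle. Pecam1 had 134.4, 144.9 and 138.7 CPM in KO ifetroban, against 160.0 and 131.8 CPM in WT ifetroban. Its log2 fold change over both treatments was -0.06 ± 0.09 (adjusted p = 0.773). Knockout libraries lay inside the wild-type range. Cdh5 had 197.3 to 237.9 CPM in knockout and 174.7 to 263.6 CPM in wild type, at -0.12 ± 0.12 (adjusted p = 0.684). Icam2, with the shortest transcript at 1.282 kb, had 15.5 to 21.1 CPM in knockout and 15.0 to 21.0 CPM in wild type, at 0.11 ± 0.12 (adjusted p = 0.695). With the slope set as a term the values over both treatments were 0.00 for Pecam1, 0.05 for Cdh5 and -0.05 for Icam2, so the signs of these 3 genes were not fixed either. The higher Icam2 libraries were the 4 with a negative slope, at 19.9 to 21.1 CPM, against 15.0 to 17.1 CPM in the other 5. Cdh5 was lower in the negative-slope libraries, at 174.7 to 210.0 CPM, against 227.1 to 263.6 CPM in the positive-slope libraries.

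Nos3, endothelial nitric oxide synthase, had 28.4 and 28.5 CPM in KO vehicle, against 29.2 and 33.7 CPM in WT vehicle. It had 29.8, 36.8 and 31.7 CPM in KO ifetroban, against 33.9 and 34.7 CPM in WT ifetroban. Both KO vehicle libraries were below every other library, by a narrow margin, and the log2 fold change over both treatments was -0.10 ± 0.09 (adjusted p = 0.628). Nos3 also divided by slope set, at 28.4 to 29.8 CPM in negative-slope libraries, which include both KO vehicle libraries, and 31.7 to 36.8 CPM in positive-slope libraries. Its vehicle value was -0.14 without and -0.04 with the slope set as a term. An exon of Nos3 overlaps one of Atg9b on the opposite strand by 294 bases, and no source used here gives the strand setting of the counting. Atg9b had 0.795 to 1.59 CPM in knockout and 0.667 to 1.33 CPM in wild type, low beside Nos3. An exon of Icam1 overlaps one of Gm47079 on the opposite strand by 511 bases, and Gm47079 was not analysed here.

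The second comparison asked what ifetroban changed within a genotype. None of the 10 genes passed the threshold in knockout, in wild type or over both genotypes with edgeR, and 0 genes of 15549 did. At an unadjusted p under 0.05 there were 615 genes (3.96%) in knockout, 350 (2.25%) in wild type and 1238 (7.96%) over both, 0 of them among the 10. DESeq2 called 0, 0 and 2 genes at an adjusted p of 0.05, in the same order. Icam1 had 19.7, 18.4 and 16.0 CPM in KO ifetroban, against 18.9 and 16.7 CPM in KO vehicle, a log2 fold change of 0.02 ± 0.15 (adjusted p = 0.976). In wild type it was -0.04 ± 0.17 (adjusted p = 0.961). Nos3 was above its vehicle libraries in every ifetroban library of both genotypes, at 0.20 ± 0.13 in knockout (adjusted p = 0.862) and 0.13 ± 0.14 in wild type (adjusted p = 0.887). With the slope set as a term these were 0.07 ± 0.11 and 0.03 ± 0.11. Pecam1 was likewise above in knockout, at 0.14 ± 0.13 (adjusted p = 0.862). Of all genes, 10.4% stood wholly above in knockout and 17.6% in wild type, so such a count is near the background. Ifetroban libraries in wild type both had a positive slope, and the vehicle libraries had 1 of each, so treatment and slope set are partly tied.

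The treatment value of Selp in knockout was 1.26 ± 0.65 (adjusted p = 0.862), at 2.86, 1.37 and 0.727 CPM in KO ifetroban, against 0.911 and 0.442 CPM in KO vehicle, with overlap. It was 0.64 ± 0.60 (adjusted p = 0.544) without both doubted libraries, of which KO ifetroban replicate 1 held the 2.86 CPM. Vwf was 0.46 ± 0.34 higher in KO ifetroban (adjusted p = 0.862) and -0.32 ± 0.11 with the slope set as a term (adjusted p = 0.515). That term rested on how the doubted libraries differed from the rest of their groups. Leaving out both doubted libraries gave 0.75 ± 0.09 for Vwf in knockout (adjusted p = 0.00128, with 11.6% of all genes passing). In that fit the KO ifetroban libraries all have a positive and the KO vehicle libraries a negative slope, and the 2 cannot be told apart. No interaction of genotype and ifetroban passed for the 10 genes (adjusted p = 0.9999 for each), and 0 of all genes did, with 298 (1.92%) at an unadjusted p under 0.05 and 0 by DESeq2. Without both doubted libraries Vwf passed it at 0.80 ± 0.14 (adjusted p = 0.0417, 0.45% of all genes), with the same tie to the slope. Over the 10 genes the estimates with all libraries ran from -0.32 ± 0.26 for Vcam1 to 1.05 ± 1.10 for Selp.

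Genes around these molecules were counted over lists, for genotype over both treatments, where 2.06% of all genes rose and 0.27% fell. Among 12 leukocyte counter-receptors of the adhesion molecules, 5 rose and 0 fell, with a median log2 fold change of 1.05. Itgam, a subunit of the integrin that binds ICAM-1, had 10.96 to 25.1 CPM in knockout and 5.87 to 9.37 CPM in wild type, at 1.17 ± 0.20 (adjusted p = 0.0194). Selplg, the ligand of P-selectin, had 6.10 to 7.72 CPM in knockout and 3.08 to 4.40 CPM in wild type, at 0.79 ± 0.14 (adjusted p = 0.0217). Itgb2 (1.09) and Cd44 (1.00) also rose.

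Among 24 genes of NF-kappaB, TNF and IL-1 signalling, 3 rose and 0 fell, with a median of 0.32. Tnfrsf1b and Tnfrsf1a, the receptors of TNF, had log2 fold changes of 0.58 ± 0.10 (adjusted p = 0.0211) and 0.52 ± 0.11 (adjusted p = 0.0335). Relb, a subunit of NF-kappaB, had 0.52 ± 0.11 (adjusted p = 0.0376). Tnf itself had 0.121 to 0.873 CPM in knockout and 0.167 to 1.13 CPM in wild type, with overlap. Il1b had 1.25 to 6.98 CPM in knockout and 0.0808 to 1.23 CPM in wild type, at 2.77 ± 0.75 (adjusted p = 0.0951). Tnf, Il1b, Itgb2 and Cd44 were named after their values were seen.

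Among 20 genes of endothelial granules and haemostasis, 3 rose and 0 fell, with a median of 0.20. Plat, tissue plasminogen activator, had 21.8 to 26.7 CPM in knockout and 15.5 to 18.6 CPM in wild type, at 0.48 ± 0.09 (adjusted p = 0.0293). Anxa2, a surface receptor for that enzyme, changed by 0.83 ± 0.17 (adjusted p = 0.0337), and Ptgis, prostacyclin synthase, by 0.80 ± 0.18 (adjusted p = 0.0475). Among 17 other genes of leukocyte adhesion at the endothelium, 1 rose and 0 fell, with a median of 0.13. That gene, Spn, encodes a sialoglycoprotein of leukocytes and had 1.64 to 2.57 CPM in knockout and 0.375 to 1.17 CPM in wild type, at 1.44 ± 0.32 (adjusted p = 0.0475).

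In the lists of eNOS and cGMP control (20 genes), VEGF, Notch and angiopoietin signalling (19) and the VE-cadherin junction (19), 0 genes passed, and the medians were 0.04, -0.11 and -0.08. The smallest p-values there were those of Arg1 and Hsp90aa1, Vegfa (-0.27 ± 0.14) and Dll4 (-0.17 ± 0.10), and Mllt4 (-0.37 ± 0.12) and Ptprb (-0.40 ± 0.20). Arg1, arginase, which competes with Nos3 for arginine, had 0.0803 to 9.22 CPM in knockout and no count in any wild-type library, with an adjusted p of 0.0843. The 25 endothelial markers had a median of -0.05, with Aqp1, a water channel of capillaries, at 205.1 to 348.4 CPM in knockout and 328.1 to 437.9 CPM in wild type (-0.55 ± 0.15, adjusted p = 0.0949).

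Among 8 endocardial and venous markers, 1 rose. Plvap, the diaphragm protein of endothelial fenestrae and caveolae, had 10.5 to 13.0 CPM in knockout and 4.71 to 6.70 CPM in wild type, at 1.03 ± 0.14 (adjusted p = 0.00689). Among 7 lymphatic markers Pdpn, podoplanin, rose by 1.67 ± 0.33 (adjusted p = 0.0280), while Lyve1 had 16.8 to 32.1 CPM in knockout and 13.3 to 28.8 CPM in wild type, with overlap. Of the 7 lymphatic markers, 4 had a log2 fold change above 0, with a median of 0.28. Prox1 (-0.30), Reln (-0.14) and Flt4 (-0.11) were below 0. Lyve1, Prox1, Reln and Flt4 were named after their values were seen. In the other cell types, 4 of 10 fibroblast markers rose, among them Col1a1, Col3a1 and Mfap5. Of the rest, 0 of 5 platelet, 0 of 5 lymphocyte, 0 of 10 mural, 0 of 10 cardiomyocyte, 0 of 6 erythroid and 0 of 6 mesothelial, atrial and nerve markers passed. Summed cardiomyocyte markers were nonetheless 61990 to 69880 CPM in knockout and 73810 to 77230 CPM in wild type, without overlap. Only 1 of these 10 had a log2 fold change above 0. The effect of that sum on the CPM share of other genes was not tested. Under each ifetroban comparison 0 genes of any list passed.

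Some list calls changed in the other fits of genotype over both treatments. Without both doubted libraries, 5 of 12 counter-receptors, 15 of 17 macrophage and myeloid markers (14 of them among the 15 that rose with all libraries), Plvap and Pdpn rose, while Spn (adjusted p = 0.0520), Relb (0.0615) and Ptgis (0.0926) did not pass. There 1 of 25 endothelial markers and 1 of 19 VE-cadherin junction genes fell, and 1 of 20 genes of eNOS and cGMP control rose. With the slope set as a term, 3 of 12 counter-receptors rose, and Itgb2 (adjusted p = 0.0916), Cd44 (0.0613) and Ptgis (0.113) did not pass. In that fit 15 of 17 macrophage and myeloid markers and 5 of 24 genes of NF-kappaB, TNF and IL-1 signalling rose, and 0 of 25 endothelial markers passed.

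**Figure D5:**
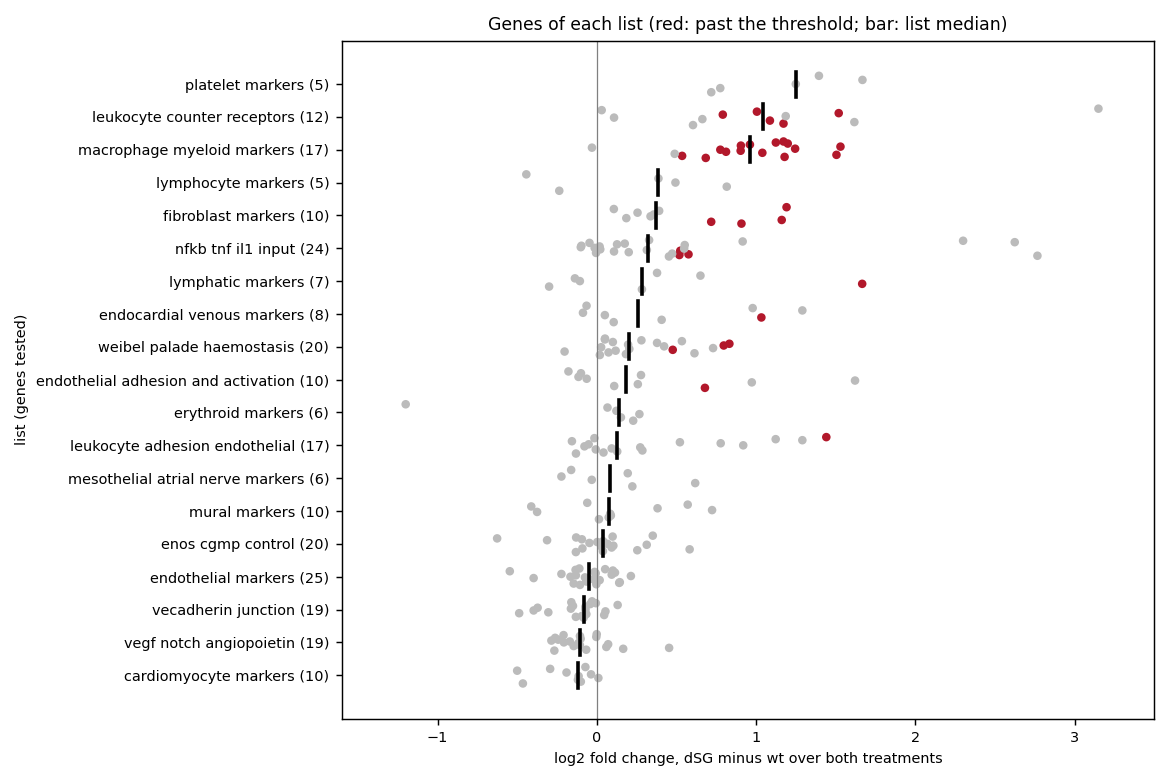
Log2 fold change of knockout over wild type across both treatments (horizontal axis) for the tested genes of each list (rows, number tested in brackets); red points passed an adjusted p of 0.05 and bars are list medians. Arg1, with no count in wild type, is left out; macrophage and counter-receptor genes hold most red points, and the medians of the endothelial marker, VE-cadherin and VEGF lists lie between -0.11 and -0.05.

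Likeness was measured as the root-mean-square difference between profiles of log2 CPM over the 9 libraries, each scaled to a mean of 0 and an SD of 1, among 12109 genes with a mean of at least 1 CPM. The gene with the profile most like that of Icam1 was Laptm5 (0.156), a gene of the macrophage and myeloid list. Laptm5 had 32.6 to 44.6 CPM in knockout and 16.8 to 21.8 CPM in wild type. The nearest to Sele was Faim (0.126), to Vcam1 Gprc5b (0.334), to Icam2 Tmem9b (0.196) and to Vwf Ntn1 (0.213). Pecam1 was nearest to Fam219a (0.192), Cdh5 to Skiv2l (0.217) and Kdr to Cep78 (0.213), and Selp was too low to enter. Among the 10 genes themselves, Icam1 and Sele were each other's nearest (0.552), as were Pecam1 and Cdh5 (0.459) and Nos3 and Kdr (0.597). Counted over all 12109 genes, Sele had rank 377 from Icam1 and Icam1 rank 77 from Sele. Cdh5 had rank 22 from Pecam1 and Pecam1 rank 248 from Cdh5. Kdr had rank 1126 from Nos3 and Nos3 rank 597 from Kdr. All profiles share the same 9 libraries, their depth and their length slopes.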

How the data were processed

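The deposited values were expected counts per gene, 1 set per library, made by the authors before deposit and not scaled between libraries; 28.168% of them were not whole. The submitters' processing notes name bcl2fastq, STAR, Partek and the build mm10 without roles; the counting rule and its strand setting were not given. Libraries were grouped by title. Gene ends were reduced by 1 base, which made 15566 of 19704 shared symbols match GENCODE M21 (70 before).

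Expected counts were rounded, filtered with filterByExpr (minimum count 10, leaving 15549 genes) and scaled by TMM. edgeR 4.0.16 (R 4.3.3) quasi-likelihood tests were fitted across all genes with 4 group means, and with genotype plus treatment for effects over both; p-values were adjusted by Benjamini-Hochberg over all 15549 genes at a threshold of 0.05. Fold changes are log2 with SE, with a common biological coefficient of variation of 0.176. Fits were also run on simulated counts with known changes. Those counts held no length-slope sets and no doubted labels, so that run says nothing of either. The length slope used log2 CPM (prior count 2). Alternatives were DESeq2 1.42.0, limma-voom (limma 3.58.1), DESeq2 size factors, other filters, a replicate block, the other label of KO ifetroban replicate 1, the slope set and each library left out; leaving out both doubted libraries, and the list counts in that fit and with the slope set, were added after seeing the data. The 10 genes and the lists were chosen with earlier results of these data known. All 10 genes are named; of a list, up to 3 genes past the threshold with the smallest adjusted p, or else the 2 with the smallest p; some genes that the rules name are not reported here. Pecam1 ratios compare libraries, not genes.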

Additional observations from a re-analysis of the deposited data

Results flagged for a closer look

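Among 20 sets of values (each of the 10 genes in all knockout and in all wild-type libraries), 2 held a library far from the others by Dixon's criterion, and chance gives about 1 in 20. Sele in KO ifetroban replicate 1, at 3.56 CPM, stood above the other 4 knockout libraries, which had 1.78 to 2.28 CPM. This is the library whose labels disagree on treatment. Vwf in the library labelled WT vehicle replicate 1, at 25.0 CPM, stood below the other 3 wild-type libraries, which had 43.9 to 46.0 CPM. This is the only wild-type library with a negative length slope, and its Sgcd level of 8.36 CPM lay inside the knockout range.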

How the results depend on the processing

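Across 1332 values of the 10 genes under the alternatives, 1180 kept direction and side of the threshold, 140 changed sign without passing, 10 came to pass, 2 no longer passed and 0 reversed. For genotype over both treatments, the 1 gene past the threshold (Icam1) became 0 to 1 with a library left out, being lost without WT ifetroban replicate 2 or KO vehicle replicate 1; in the other 9 settings Icam1 ranged from 0.61 to 0.71 (adjusted p 3.378e-06 to 0.0148). For genotype under ifetroban, 0 became 1 with DESeq2 (Icam1, 0.71, adjusted p = 0.0106), 2 with the slope set as a term (Icam1, adjusted p = 0.0467, and Vwf), 1 with positive-slope libraries alone (Vwf) and 1 without both doubted libraries (Vwf, 0.64, adjusted p = 0.0119). Under vehicle, 0 became 1 (Vwf) with the slope term and 1 (Vwf) with negative-slope libraries alone. Over both treatments the slope term gave 2. Without both doubted libraries, 1 gene (Vwf) passed for ifetroban in knockout and 1 (Vwf, 0.80, adjusted p = 0.0417) for the interaction. These fits change the samples or the model, and the cause was not tested. Within one treatment or one genotype, the slope term rested on the doubted libraries, since no other groups held both slope sets. Under the strict filter (1 CPM) Selp was not tested.

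The replicate block left Icam1 at 0.71 (adjusted p = 0.00957) and the number of the 10 genes past the threshold as it was. It called 550 genes instead of 363. Same-numbered libraries, after centring each group, had correlations of -0.06 to 0.50, with 2 of 12 above 0.1. Those 2 pairs each shared a slope set. In groups of 2 libraries the centred values mirror each other, so these correlations cannot show whether libraries were paired. Genes called over all settings ran from 51 to 896 around 363 for genotype over both, 2 to 1541 around 8 under vehicle, 2 to 290 around 6 under ifetroban, 0 to 1856 around 0 for ifetroban in knockout, 0 to 72 around 0 for the interaction and 0 to 2 around 0 for ifetroban over both genotypes. Groups of 2 or 3 libraries and selectin counts of 4 to 76 limit precision.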
